A study of Homo sapiens with 10 samples.

Results

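Cells of the H1975 line, an established human lung adenocarcinoma line with an activating EGFR mutation, that had received osimertinib and then AZD5153 were compared with cells that never saw either drug. The comparison took 6 of the 10 libraries of the series, 3 per group, chosen by the drug schedule in their labels. Control cells spent 21 days in drug-free medium and then 3 days in the solvent DMSO. Cells of the sequential group spent 21 days in 500 nM osimertinib, an inhibitor of the EGFR tyrosine kinase, and then 3 days in 150 nM AZD5153, an inhibitor of the bromodomains of BET proteins. Whether osimertinib was still present during the last 3 days is not given in the labels. The sequential group differs from DMSO in both drugs, whose parts in a difference cannot be told apart in this comparison. Drug-tolerant persister (DTP) cells kept in 500 nM osimertinib for 24 days supplied 3 more libraries, which entered the fits through the shared estimate of the spread, and the last library was a pooled input. All groups come from 1 cell line, the labels call the replicates biological, and p-values measure the spread between these libraries.

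H3K27ac, acetylation of lysine 27 of histone H3, marks active promoters and enhancers and was read by chromatin immunoprecipitation and sequencing. Mutant EGFR drives growth in such cells through the RAS, RAF, MEK and ERK kinases, whose output includes AP-1 factors, ETS factors and feedback inhibitors such as the Sprouty proteins. YAP and TAZ, the cofactors of the TEAD transcription factors, are known from cells that survive EGFR inhibition, and BET proteins bind acetylated histones and bring the elongation factor P-TEFb to promoters and enhancers.

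Reads were counted by the authors in 169637 regions of 502 bp, and the totals ran from 6263443 to 10463351 over the 6 libraries. Sequential replicates 1 and 2 correlated at a Spearman coefficient of 0.890, but replicate 3 correlated with them at 0.430 and 0.354, against 0.870 to 0.898 among the DMSO libraries. Replicate 3 also held the lowest total, and 66.7% of its counts in annotated regions lay within 1 kb of a start site, against 40.3% and 42.2% in the other sequential libraries and 43.5% to 45.7% in DMSO. Calls therefore rest on both a fit with all libraries and a fit without replicate 3, and fold changes and list medians are given from both. In bulk chromatin, a change in every cell and a change in the share of cells that carry a mark cannot be told apart.

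H3K27ac was gained and lost at similar numbers of regions. With all libraries, edgeR tested 157919 regions and called 14286 higher (9.05%) and 14232 lower (9.01%) in the sequential group than in DMSO at a Benjamini-Hochberg adjusted p under 0.05. Without replicate 3, 29786 of 161758 regions were called higher (18.4%) and 27986 lower (17.3%). Of these, 13832 were called higher in both fits, in 8686 loci after merging regions within 1000 bp, and 14232 were called lower in both, in 9019 loci. No region was called in opposite directions. "Called" below means called the same way in both fits. The smallest log2 fold change among called regions was 1.40 higher and 1.44 lower with all libraries, and the median sizes were 2.77 and 2.76. The 3 sequential and the 3 DMSO libraries did not overlap in 78.0% of the regions called higher and in 99.9% of those called lower, against 14.4% higher and 19.0% lower of all tested regions.

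The balance of both directions depended on the scaling: library sizes without TMM gave 9564 higher and 15152 lower, and a loess offset gave 17258 and 11983. Over every region tested, the log2 fold changes had a median of 0.23 under TMM and -0.02 under plain library sizes, 0.30 under the loess offset and -0.11 under TMM once replicate 3 was left out, and the values below stand relative to that shift. The counts also rested on single libraries: 3943 regions were called higher and 4526 lower without DMSO replicate 2, 4172 and 5843 without DMSO replicate 3, 7632 higher without DMSO replicate 1 and 8470 and 8216 without sequential replicate 1. For this reason each count for a gene or list below is followed by its range over 8 repeats of both fits, each without 1 of the other 8 libraries (written as "range", with a library that gave the lowest count where this was more than 1.5 times below the count itself), and a single region is given an adjusted p only where it stayed called in all 9 fits that left out 1 library. Of each gene, the region described is the called one with the highest mean count in the stated direction, unless a promoter region is named. Counts of promoter regions or of genes within a list have no range, as none was computed for them. Most genes below were picked by their number of called regions. The distance between the groups in their sums and regions thus largely follows from this choice and is not a result.

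**Figure D1:**
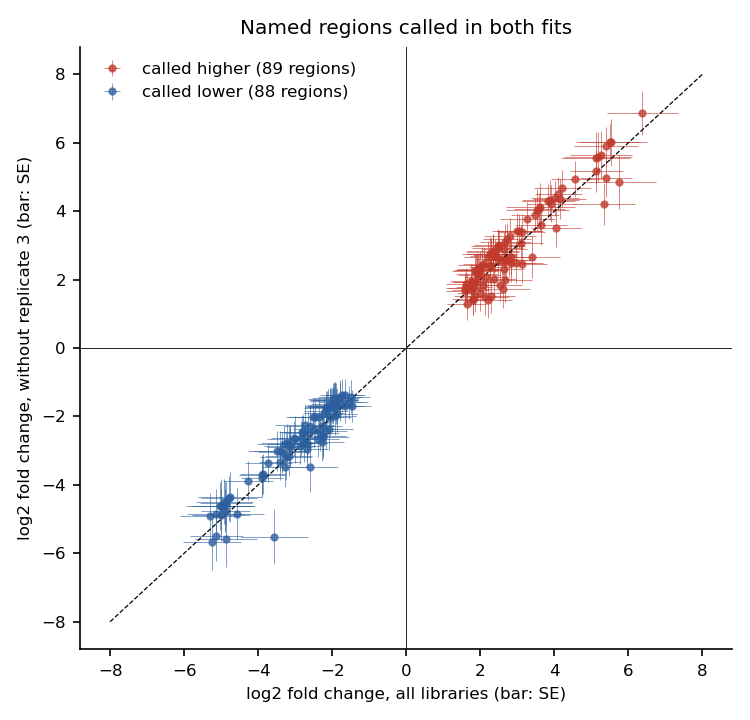
Log2 fold change of H3K27ac in the sequential group over DMSO for the regions named by rule and called in both fits, with all libraries (horizontal axis) and without sequential replicate 3 (vertical axis); points are regions, bars are standard errors, and the dashed line marks equal values. The 89 regions called higher and the 88 called lower lie near the line, in the upper right and the lower left of the plot.

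Replicate 3 mattered most for regions that only the fit without it called. Another 15954 regions were called higher and 13754 lower in that fit alone. Among the former, replicate 3 lay above all DMSO libraries in 23.2% and below all of them in 41.9%. Among the latter it lay below all DMSO libraries in 41.6% and above all of them in 28.7%. In these regions replicate 3 was thus often on the other side of DMSO from replicates 1 and 2. Only 454 regions were called higher with all libraries and not without it, and none of the lower ones.

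The peak lists that the authors called per library showed a like contrast in replicates 1 and 2, but not in replicate 3 at the gained regions. Peaks and counts come from the same reads, and the regions were chosen by their calls. This contrast is therefore not separate support. A region called higher overlapped a peak by at least 1 bp in 94.3%, 92.8% and 44.9% of cases in sequential replicates 1, 2 and 3, and in 7.95% to 15.1% in the DMSO libraries. Over all tested regions the shares were 56.3%, 52.8% and 46.5% in sequential replicates 1, 2 and 3 and 48.7% to 51.1% in DMSO. Replicate 3 thus held peaks at regions called higher no more often than at all tested regions. For regions called lower these shares were 72.9%, 89.2% and 88.7% in DMSO and 5.12% to 14.1% in the sequential libraries. Of the 13832 higher regions, 11348 overlapped a peak in no DMSO library and 5717 in all 3 sequential ones. Of the 14232 lower regions, 11410 overlapped a peak in no sequential library and 9123 in all 3 of DMSO. In most called regions, then, no library of the lower group held a peak, but the same share over all tested regions was not computed.

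Gains and losses lay mostly away from promoters. Of 67387 regions that the authors annotated with a nearest gene, 6944 were called higher (10.3%) and 7475 lower (11.1%), and they were assigned to 2887 and 3250 of 15633 genes, 541 of which had regions of both kinds. Within 1 kb of a start site, 1129 of 24296 regions were called higher (4.65%) and 773 lower (3.18%). The median log2 fold change of these promoter regions was 0.42 with all libraries and -0.004 without replicate 3. For intronic regions it was 0.05 and 0.23. A call needs both fits, so the promoter shares also depend on replicate 3. Intronic regions were called higher in 14.8% and lower in 15.2% of 21266 cases, and distal intergenic regions higher in 13.2% and lower in 18.1% of 11561. The remaining 90532 regions, which carry no annotation, were called higher in 7.61% and lower in 7.46%.

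**Figure D2:**
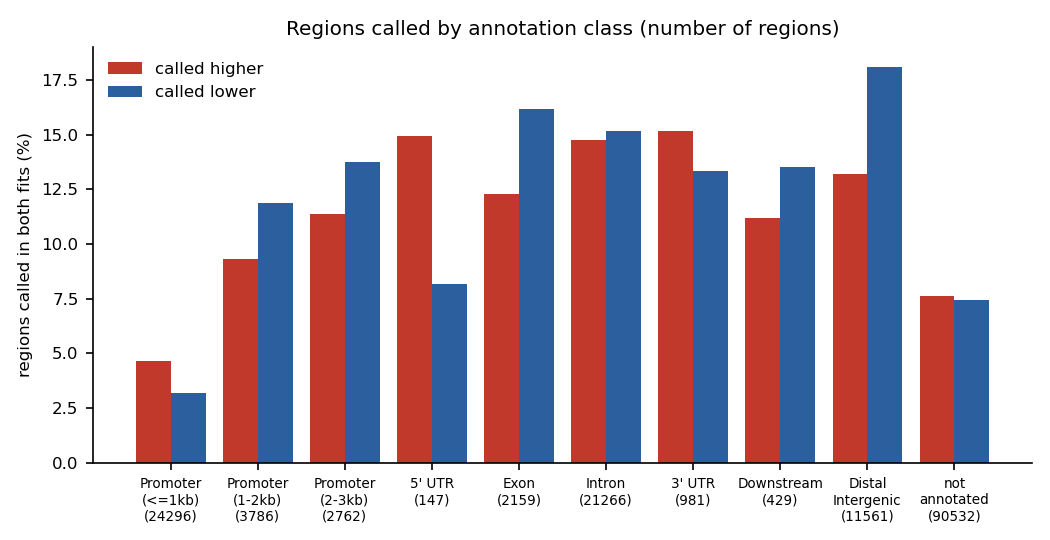
Share of regions called higher (red) and lower (blue) in both fits by annotation class, in percent of the tested regions of the class, whose number stands under each name; bars have no error since each class is a single count. Promoter regions within 1 kb have the lowest bars, 4.65% and 3.18%, and distal intergenic regions the highest blue bar, 18.1%.

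The chromosomes differed in balance. Chromosome 4 had 13.8% of its 6608 regions called higher and 7.54% lower, chromosome 5 had 12.9% and 8.47%, and chromosome 11 had 10.0% and 5.41%. Chromosomes 7 and 14 leaned the other way, with 7.29% and 7.65% higher and 11.3% and 11.7% lower. Chromosome 19 had few calls in either direction, 3.37% and 4.62%, and its median log2 fold change was 0.34 with all libraries and -0.69 without replicate 3. These shares are descriptions without a test.

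The 15 genes with the most regions called higher and none lower were NEK6, AHRR, NNMT, ANKRD1, FAM50B, PRR5L, MTMR3, SHROOM3, CRIM1, ATRNL1, CPE, DDX47, TTC28, PFDN1 and ZRANB1. All 17 regions of ANKRD1, a nuclear cofactor and a classical target of YAP and TAZ, were called higher (range 13 to 17). The summed CPM of these regions, which are counts scaled to a common library size by TMM, were 45.2, 29.3 and 19.5 in DMSO and 377, 398 and 121 in the sequential group. All sequential libraries lay above all DMSO libraries, with replicate 3 closest to them. In the ANKRD1 region that lies 9486 bp upstream (chr10:90930762-90931263, genome build hg38 here and below), the mark stood at 9.07, 5.16 and 2.61 CPM in DMSO and 56.9, 65.2 and 17.4 CPM in the sequential group. Its log2 fold change was 3.05 ± 0.63 (SE) with all libraries (edgeR adjusted p = 0.00465). For ANKRD1 without replicate 3, it was 3.43 ± 0.50 (edgeR adjusted p = 2.41e-05). At the ANKRD1 promoter region, 660 bp from the start site, the values were 3.45, 2.79 and 1.71 CPM in DMSO and 50.7, 47.8 and 15.7 CPM in the sequential group. At ANKRD1 this was a log2 fold change of 3.84 ± 0.61 (SE; edgeR adjusted p = 0.00145) and, without replicate 3, 4.20. In this ANKRD1 region osimertinib DTP cells held 26.9, 29.6 and 27.2 CPM, above all DMSO libraries and above sequential replicate 3.

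NNMT, which methylates nicotinamide at the expense of S-adenosylmethionine, was called higher in 20 of 26 regions (range 7 to 21, low without DMSO 2), with summed CPM of 191, 99.9 and 57.1 in DMSO and 851, 652 and 242 in the sequential group. Its groups did not overlap, although replicate 3 lay near the highest DMSO library. AHRR, the repressor of the aryl hydrocarbon receptor, had 22 of 28 regions (range 6 to 24, low without DMSO 2) called higher and summed CPM of 151, 71.2 and 74.1 in DMSO and 513, 378 and 1229 in the sequential group. NEK6, a mitotic kinase, was called higher in 23 of 43 regions (range 3 to 27, low without DMSO 2) at summed CPM of 447, 342 and 383 in DMSO and 1104, 981 and 1984 in the sequential group. In AHRR and NEK6 replicate 3 was the highest library, the reverse of ANKRD1 and NNMT.

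TTC28 showed a region that was nearly empty in DMSO. In its intron, 60330 bp from the start site (chr22:28245814-28246315), the libraries held 0.726, 0.723 and 0.805 CPM in DMSO and 49.6, 50.3 and 4.64 CPM in the sequential group. For TTC28, osimertinib DTP cells held 23.1, 21.8 and 19.2 CPM. DMSO sat below 1 CPM throughout, and replicate 3 was the lowest sequential library but still above all of DMSO. The TTC28 region had a log2 fold change of 5.51 ± 0.81 (SE) with all libraries (edgeR adjusted p = 0.00122). For TTC28 without replicate 3, it was 6.02 ± 0.51 (edgeR adjusted p = 3.45e-07). TTC28 had 12 of 14 regions (range 9 to 12) called higher. ATRNL1 had 13 of 15 regions (range 10 to 13) called higher. Its region 38206 bp from the start site held 5.80, 4.23 and 1.81 CPM in DMSO and 57.7, 60.8 and 14.7 CPM in the sequential group. That is a log2 fold change of 3.49 ± 0.65 (SE; edgeR adjusted p = 0.00268) and, without replicate 3, 3.89. ZRANB1, a deubiquitinase, had 12 of 18 regions (range 6 to 12, low without DMSO 3) called higher. A region 35538 bp upstream of it held 1.72, 1.65 and 1.21 CPM in DMSO and 33.4, 36.8 and 9.47 CPM in the sequential group (log2 fold change 4.11 ± 0.64, edgeR adjusted p = 0.0014, and 4.50 without replicate 3). In ATRNL1 and ZRANB1 replicates 1 and 2 stood close together and far above DMSO, and replicate 3 lay between them and DMSO.

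PRR5L, a protein associated with the kinase complex mTORC2, was called higher in 15 of 17 regions (range 8 to 15, low without DMSO 2). Its promoter region at 38 bp (chr11:36455327-36455828) had 9.34, 7.75 and 6.34 CPM in DMSO and 38.6, 39.4 and 68.6 CPM in the sequential group, with replicate 3 the highest library. The PRR5L region had a log2 fold change of 2.64 ± 0.55 (SE) with all libraries (edgeR adjusted p = 0.00436). For PRR5L without replicate 3, it was 2.31 ± 0.46 (edgeR adjusted p = 0.000581). CRIM1, a membrane protein that binds bone morphogenetic proteins, was called higher in 14 of 45 regions (range 7 to 15, low without DMSO 2). An intronic CRIM1 region 6648 bp from the start site stood at 4.53, 2.89 and 2.11 CPM in DMSO and 50.4, 57.2 and 7.92 CPM in the sequential group. At CRIM1 this was a log2 fold change of 3.59 ± 0.69 (SE; edgeR adjusted p = 0.00314) and, without replicate 3, 4.07. Summed over all 45 CRIM1 regions, however, replicate 3 had 298 CPM, within the DMSO values of 258, 322 and 326, while replicates 1 and 2 had 937 and 1007. The peptide processing enzyme CPE had 13 of 17 regions (range 7 to 13, low without DMSO 2) called higher, the phosphoinositide phosphatase MTMR3 15 of 23 regions (range 4 to 15, low without DMSO 2) and the actin-binding protein SHROOM3 15 of 39 regions (range 5 to 14, low without DMSO 2). The higher calls numbered, for the RNA helicase DDX47, 13 of 28 regions (range 5 to 13, low without DMSO 2), for the chaperone subunit PFDN1 12 of 20 regions (range 6 to 12, low without DMSO 2) and for FAM50B 17 of 27 regions (range 6 to 17, low without DMSO 3).

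**Figure D3:**
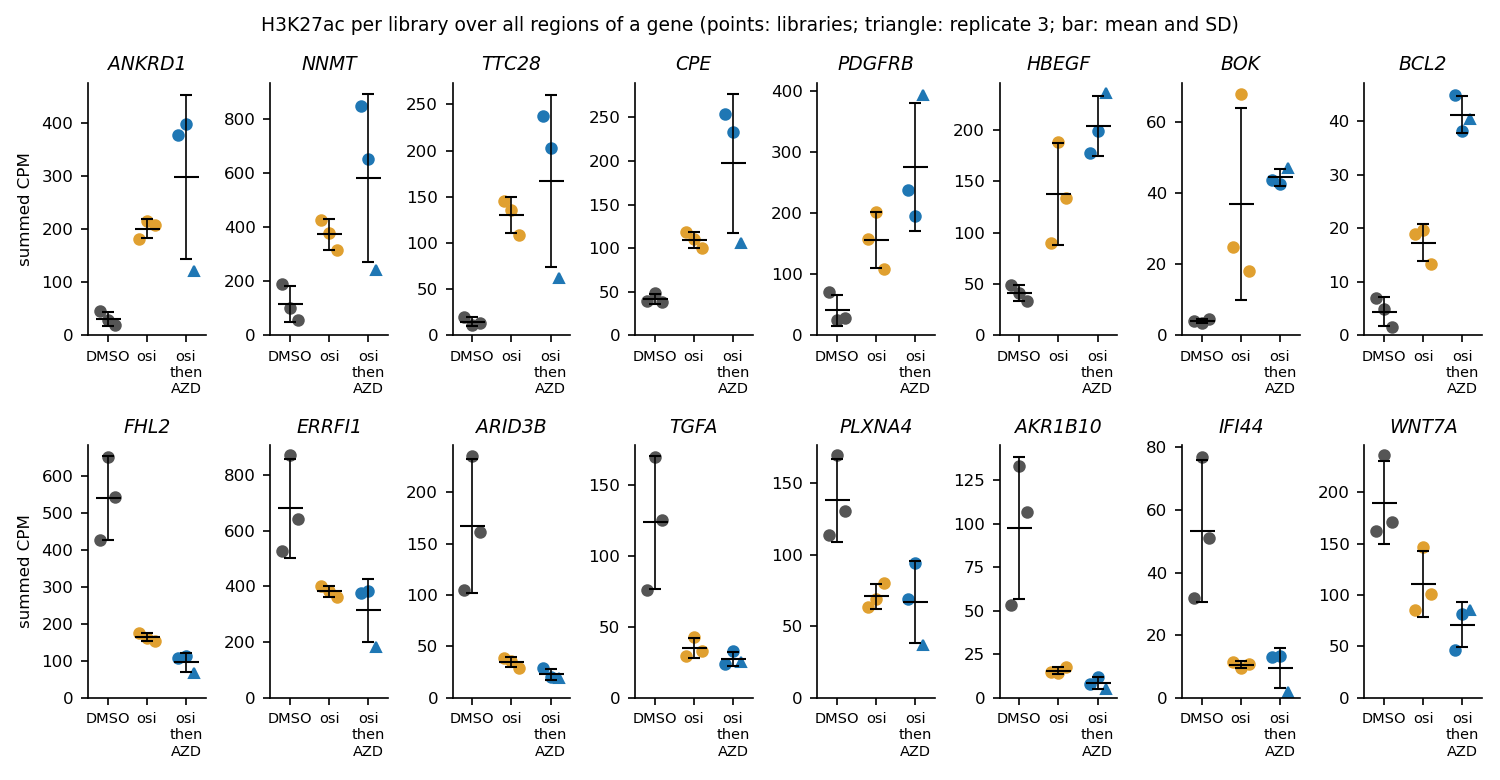
H3K27ac summed over all regions assigned to a gene, in TMM-scaled CPM, in DMSO (grey), osimertinib DTP (osi, orange) and the sequential group (osi then AZD, blue) for 16 genes; points are libraries, triangles mark sequential replicate 3, and bars give mean and SD of 3 libraries. In the upper row the sequential libraries lie above the DMSO libraries, and in the lower row below them; in ANKRD1, NNMT, TTC28 and CPE the triangle is the lowest sequential point.

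The 15 genes with the most regions called lower and none higher were FHL2, ERRFI1, SLC25A51, CRYBG1, KPNA7, MANCR, WSCD1, TANGO6, SEMA4B, ZNF841, CELSR1, ARID3B, SERP2, BTBD11 and GALNT15. FHL2, a LIM-domain cofactor of several transcription factors, had 28 of 33 regions (range 20 to 27) called lower. Its summed CPM were 425, 652 and 542 in DMSO and 108, 111 and 65.7 in the sequential group, with 176, 163 and 153 in osimertinib DTP cells. The sequential libraries all lay below every DMSO library and replicate 3 was the lowest of them. ERRFI1, the feedback inhibitor of ERBB receptors also known as MIG6, was called lower in 18 of 43 regions (range 6 to 17, low without DMSO 2) with summed CPM of 525, 872 and 641 in DMSO and 374, 385 and 183 in the sequential group. The ERRFI1 groups did not overlap, and replicate 3 was the lowest library.

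KPNA7, an importin alpha, was called lower in 14 of 17 regions (range 8 to 14, low without DMSO 2). A distal region 3911 bp upstream (chr7:99211417-99211918) held 27.2, 57.4 and 45.9 CPM in DMSO and 3.51, 2.68 and 2.51 CPM in the sequential group. For KPNA7, osimertinib DTP cells held 7.07, 5.84 and 6.95 CPM. Every sequential library lay far below every DMSO library. The KPNA7 region had a log2 fold change of -3.89 ± 0.57 (SE) with all libraries (edgeR adjusted p = 0.00122). For KPNA7 without replicate 3, it was -3.81 ± 0.55 (edgeR adjusted p = 2.11e-05). WSCD1 was called lower in 13 of 13 regions (range 7 to 13, low without DMSO 2). Its intronic region 53075 bp from the start site stood at 18.1, 21.3 and 14.6 CPM in DMSO and 3.11, 2.09 and 2.71 CPM in the sequential group. This gave a log2 fold change of -2.76 ± 0.58 (SE; edgeR adjusted p = 0.00473) and, without replicate 3, -2.79.

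ARID3B, a DNA-binding protein of the ARID family, was called lower in 11 of 12 regions (range 9 to 11), SERP2 in 11 of 12 regions (range 8 to 11) and the zinc finger gene ZNF841 in 12 of 13 regions (range 9 to 12). The called ARID3B region 9999 bp upstream had 17.96, 47.9 and 29.1 CPM in DMSO and 4.51, 4.07 and 1.93 CPM in the sequential group. At ARID3B this was a log2 fold change of -3.15 ± 0.61 (SE; edgeR adjusted p = 0.00305) and, without replicate 3, -2.88. CELSR1, a cadherin of planar cell polarity, was called lower in 12 of 30 regions (range 6 to 13, low without DMSO 2). A region 76913 bp from its start site held 23.7, 51.4 and 41.3 CPM in DMSO and 2.204, 4.77 and 5.03 CPM in the sequential group (log2 fold change -3.28 ± 0.60, edgeR adjusted p = 0.00241, and -3.48 without replicate 3). SEMA4B, a transmembrane semaphorin that signals through plexins, had 13 of 31 regions (range 6 to 12, low without DMSO 3) called lower at summed CPM of 408, 497 and 457 in DMSO and 189, 142 and 288 in the sequential group. Its groups did not overlap, but replicate 3 was the highest sequential library. SLC25A51, the mitochondrial NAD transporter, was called lower in 16 of 24 regions (range 11 to 16), and CRYBG1 in 16 of 28 regions (range 8 to 15, low without DMSO 2). Lower calls covered, at the noncoding RNA MANCR, 13 of 24 regions (range 4 to 14, low without DMSO 2), at TANGO6 13 of 19 regions (range 5 to 13, low without DMSO 2), at BTBD11 11 of 15 regions (range 8 to 11) and at the glycosyltransferase gene GALNT15 11 of 23 regions (range 8 to 10).

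**Figure D4:**
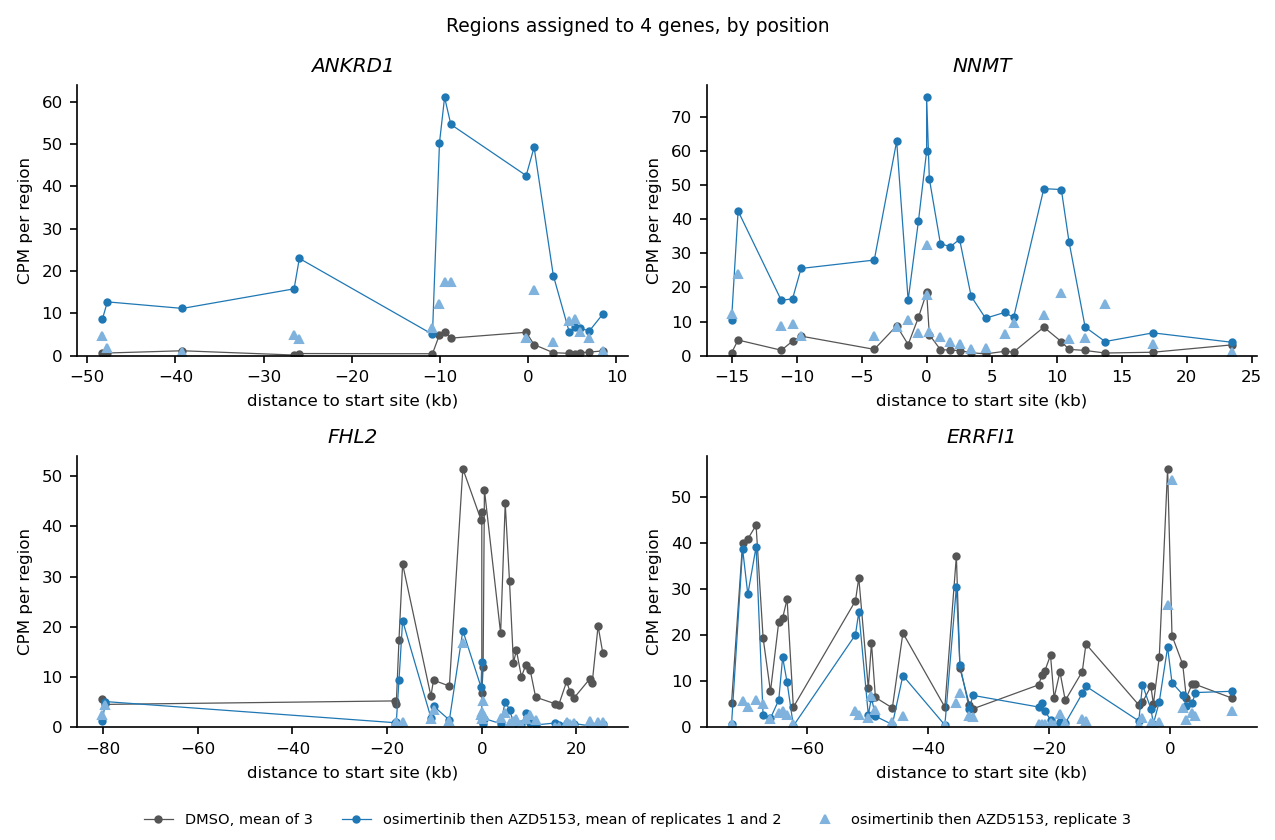
H3K27ac of each region assigned to ANKRD1, NNMT, FHL2 and ERRFI1 by its distance to the start site in kb, in CPM; grey points and lines are the mean of 3 DMSO libraries, dark blue the mean of sequential replicates 1 and 2, and light triangles replicate 3. The blue line runs above the grey one across ANKRD1 and NNMT and below it across most of FHL2 and ERRFI1. The triangles lie below the blue line at most regions of ANKRD1 and NNMT and leave it at some regions of FHL2 and ERRFI1.

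Called regions often lay side by side. Stretches were runs of at least 5 neighbouring tested regions called in 1 direction, with gaps of at most 10000 bp. A tested region that was not called, or was called the other way, ended a stretch. They numbered 274 higher (1639 regions) and 318 lower (1976 regions), and this grouping was chosen after the values were seen. The longest gained stretch covered 15 regions and 16512 bp at NNMT (chr11:114298357-114314868), with summed CPM of 62.1, 22.3 and 14.1 in DMSO and 433, 272 and 107 in the sequential group. The next one, at the actin-binding gene ABLIM1, had 14 regions and 32.6, 23.3 and 13.7 in DMSO and 203, 235 and 94.3 in the sequential group. The longest lost stretch had 26 regions over 28127 bp at FHL2 (chr2:105370646-105398772), where the sums were 305, 473 and 428 in DMSO and 47.4, 41.0 and 32.3 in the sequential group. In osimertinib DTP cells the sums were 198, 118 and 131 at the NNMT stretch and 96.5, 107 and 87.7 at ABLIM1. At the FHL2 stretch they were 86.3, 65.4 and 79.2. As a stretch is made of called regions, the distance between the groups in its sum follows from the choice and is not a result.

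A lost stretch of 17 regions lay at the imprinted noncoding cluster of 14q32, next to MEG8 and the SNORD114 small nucleolar RNAs (chr14:100972231-100995076). Its summed CPM were 96.0, 228 and 145 in DMSO and 8.42, 13.8 and 1.16 in the sequential group. Another of 13 regions was assigned to MIR146A, a microRNA that dampens NF-kappaB signalling, and to ATP10B (chr5:160539099-160557649), with summed values of 54.3, 110.4 and 68.4 CPM in DMSO and 2.71, 2.79 and 0.966 in the sequential group. At ITGA6, the laminin-binding integrin subunit, 12 regions had 65.1, 127 and 86.2 in DMSO and 20.2, 17.7 and 5.41 in the sequential group. The same stretches held in osimertinib DTP cells 10.99, 6.82 and 12.3 CPM at 14q32, 3.73, 1.53 and 4.13 at MIR146A and 11.1, 12.1 and 11.7 at ITGA6. Replicate 3 was the lowest library at each of them.

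Promoter regions with the largest gains were picked among those within 1 kb that were called, did not overlap between groups and averaged at least 50 counts in the higher group, so that these properties are not results. The 10 largest belonged to MIR100HG, ATP6V1B1, LOC101927023, NPR3, MTMR14, FAM189A2, CST5, VEPH1, MYL4 and TMPRSS7. At MIR100HG, the host gene of a microRNA cluster that includes miR-100, the region at 881 bp (chr11:122038152-122038653) had 0.363, 0.207 and 0 CPM in DMSO and 26.2, 22.6 and 2.71 CPM in the sequential group. For MIR100HG, osimertinib DTP cells held 6.21, 9.18 and 7.05 CPM. DMSO was at or near 0 and replicate 3 was the lowest sequential library. The MIR100HG region had a log2 fold change of 6.38 ± 0.96 (SE) with all libraries (edgeR adjusted p = 0.00128). For MIR100HG without replicate 3, it was 6.87 ± 0.65 (edgeR adjusted p = 4.84e-07). NPR3, the clearance receptor of natriuretic peptides, had 0.181, 0.310 and 0.503 CPM in DMSO and 24.2, 16.6 and 2.13 CPM in the sequential group. At NPR3 this was a log2 fold change of 5.40 ± 0.86 (SE; edgeR adjusted p = 0.00147) and, without replicate 3, 5.90. At VEPH1 the values were 0.0907, 1.45 and 0.503 CPM in DMSO and 18.6, 47.1 and 8.504 CPM in the sequential group. At VEPH1 this was a log2 fold change of 5.18 ± 0.92 (SE; edgeR adjusted p = 0.00222) and, without replicate 3, 5.59.

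In 3 of these promoters the order of the sequential libraries was different. The vacuolar proton pump subunit gene ATP6V1B1 had 0.726, 0.310 and 0.201 CPM in DMSO and 4.41, 20.7 and 45.2 CPM in the sequential group. The phosphoinositide phosphatase gene MTMR14 had 1.09, 0.310 and 0.704 CPM in DMSO and 28.3, 17.5 and 45.2 CPM in the sequential group. At FAM189A2 there were 0.453, 0.207 and 0.302 CPM in DMSO and 8.32, 4.19 and 29.0 CPM in the sequential group. Replicate 3 was the highest library at each. Their log2 fold changes in that order and with all libraries were 5.76, 5.39 and 5.35, and without replicate 3 4.85, 4.98 and 4.21. The myosin light chain gene MYL4 had 0.544, 0.310 and 1.01 CPM in DMSO and 14.03, 31.9 and 20.9 CPM in the sequential group. For the protease inhibitor gene CST5 the values were 0.363, 0.620 and 0.402 CPM in DMSO and 9.92, 37.3 and 6.96 CPM in the sequential group. All 10 promoters remained called in every fit that left out 1 library.

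The 10 largest promoter losses, picked by the same rule, belonged to BTAF1, MIR5584, MOK, DERA, SNORD114-31, MIR154, KRT78, SUSD1, SNORD114-26 and CAPN8. BTAF1, an ATPase that removes TBP from DNA, had 6.89, 19.4 and 13.2 CPM in DMSO and 0.501, 0.349 and 0 CPM in the sequential group at 292 bp (chr10:91935444-91935945). The sequential libraries held between 0 and 0.501 CPM there. The BTAF1 region had a log2 fold change of -5.31 ± 0.79 (SE) with all libraries (edgeR adjusted p = 0.00122). For BTAF1 without replicate 3, it was -4.90 ± 0.68 (edgeR adjusted p = 1.36e-05). The kinase gene MOK had 8.34, 12.1 and 17.6 CPM in DMSO and 0.301, 0.233 and 0.580 CPM in the sequential group. The nucleotide catabolism gene DERA had 4.17, 15.5 and 9.76 CPM in DMSO and 0.301, 0.349 and 0.193 CPM in the sequential group. At the keratin gene KRT78 there were 5.17, 14.9 and 13.2 CPM in DMSO and 0.100, 0.349 and 0.773 CPM in the sequential group. The groups were far apart at each of them. Their log2 fold changes were -5.13, -5.01 and -4.87 with all libraries, and without replicate 3 -5.50, -4.87 and -5.59. SUSD1 had the highest DMSO mean of these promoters, with 16.3, 25.7 and 15.4 CPM, against 0.601, 1.05 and 0.193 CPM in the sequential group.

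The 14q32 cluster supplied 3 of these 10 promoters. The SNORD114-31 region held 7.26, 19.2 and 10.6 CPM in DMSO and 0.501, 0.582 and 0 CPM in the sequential group. The SNORD114-26 region held 6.17, 11.3 and 7.14 CPM in DMSO and 0.301, 0.465 and 0 CPM in the sequential group. In the MIR154 region, 975 bp upstream (chr14:101058279-101058780), there were 8.07, 23.9 and 16.9 CPM in DMSO and 0.401, 0.931 and 0.193 CPM in the sequential group. For MIR154, osimertinib DTP cells held 1.15, 0.139 and 1.21 CPM. DMSO replicate 1 was the lowest control library at each of them and still lay above every treated library. The MIR154 region had a log2 fold change of -4.90 ± 0.79 (SE) with all libraries (edgeR adjusted p = 0.00156). For MIR154 without replicate 3, it was -4.61 ± 0.72 (edgeR adjusted p = 5.20e-05). The mature products of MIR154 (RefSeq, GRCh38.p14) are shown as an example, with the seed (bases 2 to 8) in capitals, and their levels were not measured here. MIR5584, the other microRNA gene among these 10, is not shown.
hsa-miR-154-5p: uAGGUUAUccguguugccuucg
hsa-miR-154-3p: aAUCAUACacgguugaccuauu

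Promoter sequences of RefSeq (GRCh38.p14), which run from 250 bases before to 50 after a start site, were searched for short motifs on both strands. Windows overlapped 9616 of the 24296 tested promoter regions (39.6%), of which 255 were called higher and 95 lower. The AP-1 letters TGANTCA, N being any base, stood in 31 of 95 (32.6%) windows of lower regions and in 16 of 255 (6.27%) of higher ones, against 550 of 9616 (5.72%) of all tested and 2707 of 35116 (7.71%) of all windows in the table. In the 2496 tested windows lowest in GC content, up to 59.7%, the AP-1 shares were 24 of 55 (43.6%) lower, 11 of 107 (10.3%) higher and 290 of 2496 (11.6%) tested. Among the regions that stayed called without any single library, 11 of 23 lower and 3 of 45 higher windows held them. The TEAD letters GGAATG stood in 38 of 255 (14.9%) higher, 13 of 95 (13.7%) lower and 1041 of 9616 (10.8%) tested windows. Among the regions that stayed called without any single library, 6 of 45 higher and 4 of 23 lower windows held the TEAD letters, an order opposite to that of all called windows. For the GC box GGGCGG the counts were 145 of 255 (56.9%) higher, 43 of 95 (45.3%) lower and 7032 of 9616 (73.1%) tested. The CCAAT box stood, in the same order, in 78 of 255 (30.6%), 43 of 95 (45.3%) and 3586 of 9616 (37.3%), and the CRE letters TGACGTCA in 8 of 255 (3.14%), 2 of 95 (2.11%) and 327 of 9616 (3.40%). In the windows lowest in GC content, higher and lower regions were nearly equal for the CCAAT box (43.9% and 43.6%, tested 47.4%). The same held for the GC box (24.3% and 23.6%, tested 41.1%). For the TEAD letters these shares were 21.5% higher, 14.5% lower and 16.3% tested, and for CRE 4.67%, 1.82% and 3.04%. These are descriptions without a test. A match is a run of letters and not a bound site.

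The 3 lower promoters shown here were chosen after their values were seen, as large losses that hold AP-1 letters and stayed called without any single library. IL1RL1, the receptor of interleukin 33, had 6.26, 15.3 and 9.35 CPM in DMSO and 0.902, 0.465 and 0.193 CPM in the sequential group (RefSeq window chr2:102337007-102337306, plus strand). For IL1RL1 this was a log2 fold change of -4.18 ± 0.69 (SE; edgeR adjusted p = 0.00164) and, without replicate 3, -3.88. FCRLB had 8.98, 16.4 and 15.99 CPM in DMSO and 0.701, 1.40 and 0.387 CPM in the sequential group (RefSeq window chr1:161722007-161722306, plus strand). For FCRLB this was a log2 fold change of -3.99 ± 0.64 (SE; edgeR adjusted p = 0.00147) and, without replicate 3, -3.72. PKIB, an inhibitor of protein kinase A, had 6.08, 18.3 and 12.1 CPM in DMSO and 1.20, 1.40 and 0.580 CPM in the sequential group (RefSeq window chr6:122652479-122652778, plus strand). For PKIB this was a log2 fold change of -3.46 ± 0.63 (SE; edgeR adjusted p = 0.00233) and, without replicate 3, -3.22. None of these groups overlapped. Capitals mark matches to TGANTCA, at bases 60 to 66 in IL1RL1, 100 to 106 in FCRLB, and 21 to 27 and 190 to 196 in PKIB, and the sequences read 5′ to 3′.
IL1RL1 promoter: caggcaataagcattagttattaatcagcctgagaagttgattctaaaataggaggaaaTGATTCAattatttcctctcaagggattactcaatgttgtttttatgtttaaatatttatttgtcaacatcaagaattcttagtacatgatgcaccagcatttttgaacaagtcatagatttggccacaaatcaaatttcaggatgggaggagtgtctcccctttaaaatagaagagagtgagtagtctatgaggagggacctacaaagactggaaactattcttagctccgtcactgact
FCRLB promoter: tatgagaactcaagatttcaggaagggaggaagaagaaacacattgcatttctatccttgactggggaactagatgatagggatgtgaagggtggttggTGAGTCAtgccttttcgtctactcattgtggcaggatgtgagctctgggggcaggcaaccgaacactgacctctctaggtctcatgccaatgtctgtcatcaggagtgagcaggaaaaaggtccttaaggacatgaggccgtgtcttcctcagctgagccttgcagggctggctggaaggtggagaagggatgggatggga
PKIB promoter: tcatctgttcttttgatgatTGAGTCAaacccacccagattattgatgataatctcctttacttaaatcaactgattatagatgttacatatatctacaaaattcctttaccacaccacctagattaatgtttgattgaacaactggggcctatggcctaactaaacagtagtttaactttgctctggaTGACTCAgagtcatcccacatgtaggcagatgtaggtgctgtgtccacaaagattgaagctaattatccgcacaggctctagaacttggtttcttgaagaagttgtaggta

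The 3 higher promoters were chosen in the same way for the TEAD letters. The window of VEPH1, whose values are given above, lies at chr3:157499607-157499906, minus strand. PAMR1 had 2.45, 1.86 and 0.805 CPM in DMSO and 26.1, 22.2 and 5.03 CPM in the sequential group (RefSeq window chr11:35530251-35530550, minus strand). For PAMR1 this was a log2 fold change of 3.38 ± 0.68 (SE; edgeR adjusted p = 0.0041) and, without replicate 3, 3.80. SOX4, a transcription factor of progenitor and epithelial cells, had 1.09, 1.34 and 1.11 CPM in DMSO and 7.11, 7.10 and 16.4 CPM in the sequential group at 175 bp upstream (RefSeq window chr6:21593501-21593800, plus strand). For SOX4 this was a log2 fold change of 3.09 ± 0.64 (SE; edgeR adjusted p = 0.00451) and, without replicate 3, 2.57. In PAMR1 replicate 3 was the lowest sequential library, and in SOX4 the highest. Capitals mark GGAATG or its complement CATTCC, at bases 83 to 88 in VEPH1, 186 to 191 in PAMR1 and 73 to 78 in SOX4. PAMR1 also holds AP-1 letters, TGATTCA at bases 44 to 50.
VEPH1 promoter: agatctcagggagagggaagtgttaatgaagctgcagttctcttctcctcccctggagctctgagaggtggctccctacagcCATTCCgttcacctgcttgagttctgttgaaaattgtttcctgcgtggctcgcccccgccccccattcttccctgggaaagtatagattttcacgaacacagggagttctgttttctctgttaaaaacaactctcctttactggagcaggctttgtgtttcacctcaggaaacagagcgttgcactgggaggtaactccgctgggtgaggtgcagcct
PAMR1 promoter: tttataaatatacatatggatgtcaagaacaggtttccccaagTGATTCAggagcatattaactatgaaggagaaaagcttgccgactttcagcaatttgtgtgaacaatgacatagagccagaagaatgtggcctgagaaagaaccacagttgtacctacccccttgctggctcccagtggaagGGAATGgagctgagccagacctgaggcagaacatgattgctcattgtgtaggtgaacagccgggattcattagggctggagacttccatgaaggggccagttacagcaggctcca
SOX4 promoter: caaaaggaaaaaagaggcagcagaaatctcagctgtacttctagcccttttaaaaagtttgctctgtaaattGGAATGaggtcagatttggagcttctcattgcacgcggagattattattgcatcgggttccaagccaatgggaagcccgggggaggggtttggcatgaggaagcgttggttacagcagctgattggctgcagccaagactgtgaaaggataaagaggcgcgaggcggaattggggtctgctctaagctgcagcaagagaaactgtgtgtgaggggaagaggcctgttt

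Gene lists were read by counting called regions against all annotated regions, of which 10.3% were called higher and 11.1% lower, with a median log2 fold change of 0.24 with all libraries and 0.05 without replicate 3. The YAP and TAZ targets had the largest share of higher regions, 25.0%, and the ERBB, axon guidance and ERK output lists the largest shares of lower ones, 25.4%, 24.5% and 20.5%. The ERBB share includes the lower regions of ERRFI1, more than those of any other gene of that list. Within 1 kb of a start site, the calls higher and lower were 1 and 9 of 50 regions in the ERK output list, 3 and 5 of 38 in the ERBB list, 8 and 2 of 42 in the bypass receptor list, 3 and 5 of 50 in the lipid list and 5 and none of 65 in the FOXO list. Over all regions within 1 kb, 4.65% were called higher and 3.18% lower. No list was tested as a set.

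**Figure D5:**
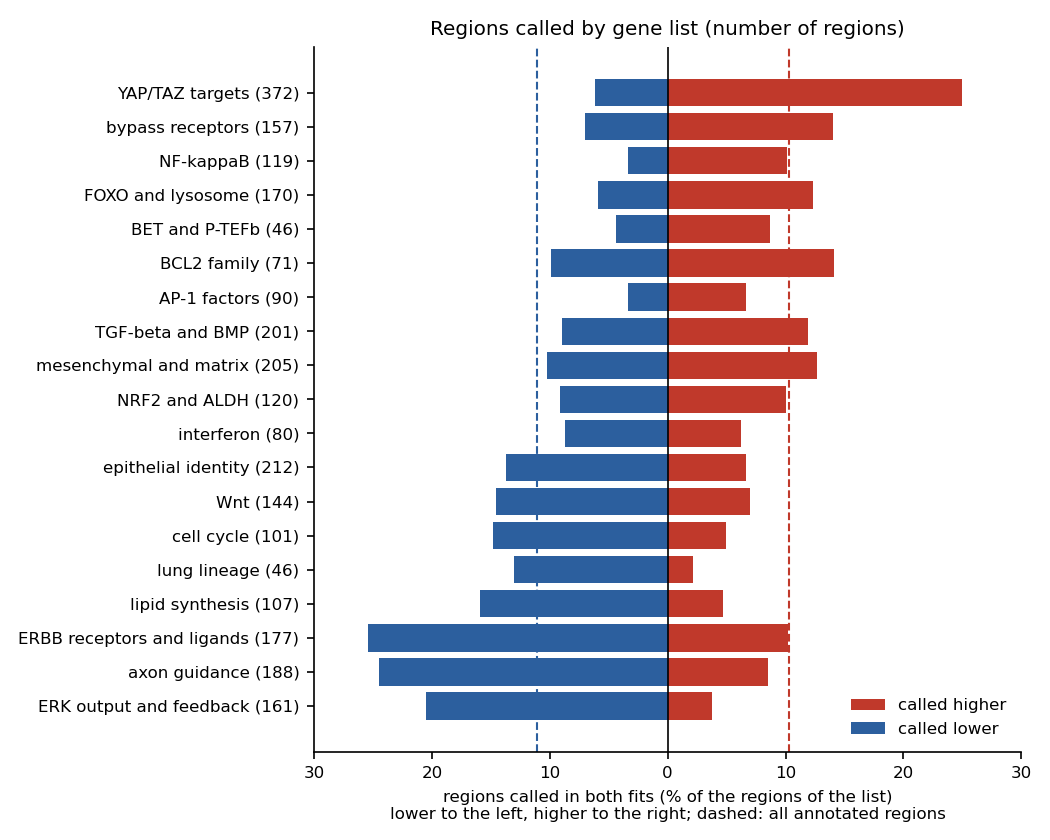
Share of the annotated regions of each gene list that were called lower (blue, to the left) and higher (red, to the right) in both fits, in percent, with the number of regions in brackets; dashed lines give the same shares over all annotated regions, 11.1% lower and 10.3% higher. The YAP/TAZ bar reaches 25.0% on the right, and the bars for ERBB, axon guidance and ERK output pass 20% on the left.

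ERK pathway output and feedback genes lost H3K27ac more often than they gained it. Of this list, 6 of 161 regions (3.73%) were called higher and 33 (20.5%) lower, over 17 genes with a region, and the median log2 fold change was -0.58 with all libraries and -0.79 without replicate 3. Regions called lower were found at 13 genes and higher ones at 3, all of which also had a lower one. Over all 15633 annotated genes, 3250 had a lower region and 2887 a higher one, but genes with more regions have more occasions for a call. The counts ranged over 0 to 7 higher and 11 to 33 lower, lowest without DMSO replicate 2. PHLDA1, an immediate target of ERK, was called lower in 8 of 28 regions (range 5 to 8, low without DMSO 2). A region assigned to it and classed as intronic, 86021 bp from its start site (chr12:75945082-75945583), had 22.6, 39.2 and 26.9 CPM in DMSO and 4.61, 6.17 and 1.55 CPM in the sequential group. That class need not refer to an intron of PHLDA1. For PHLDA1, osimertinib DTP cells held 4.59, 2.92 and 3.83 CPM. The sequential libraries lay below all of DMSO. The PHLDA1 region had a log2 fold change of -2.82 ± 0.60 (SE) with all libraries (edgeR adjusted p = 0.00527). For PHLDA1 without replicate 3, it was -2.46 ± 0.51 (edgeR adjusted p = 0.000754). SPRED2, an inhibitor of RAF activation, was called lower in 8 of 20 regions (range 0 to 6, low without DMSO 2) with summed CPM of 192, 336 and 233 in DMSO and 99.9, 90.3 and 124 in the sequential group, which did not overlap. The ERK phosphatases differed: DUSP4 had 2 of 10 regions (range 1 to 3, low without DMSO 2) and DUSP6 2 of 6 regions (range 1 to 2, low without sequential 1) called lower, whereas DUSP5 had 3 of 20 regions (range 0 to 3, low without DMSO 2) higher and 2 of 20 regions (range 0 to 2, low without DMSO 2) lower. CCND1, the gene of cyclin D1, had none of its 4 regions called, with medians of -0.27 with all libraries and -1.01 without replicate 3.

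Within the ERBB list, ligands and receptors alike had both losses and gains. In all, 18 of 177 regions (10.2%) were called higher and 45 (25.4%) lower (median log2 fold change -0.69 with all libraries and -0.58 without replicate 3, range of counts 5 to 16 higher and 16 to 38 lower, both lowest without DMSO replicate 2). The feedback inhibitor gene ERRFI1, described above, held 18 of these 45 lower regions (range 6 to 17, low without DMSO 2). TGFA, which encodes the EGFR ligand TGF-alpha, was called lower in 6 of 9 regions (range 3 to 6, low without DMSO 2). Its region 42229 bp upstream (chr2:70596422-70596923) had 18.7, 39.8 and 28.8 CPM in DMSO and 1.40, 2.56 and 0.387 CPM in the sequential group. For TGFA, osimertinib DTP cells held 2.199, 2.23 and 1.51 CPM. Sequential and osimertinib libraries were all far below every DMSO library. The TGFA region had a log2 fold change of -4.27 ± 0.68 (SE) with all libraries (edgeR adjusted p = 0.00147). For TGFA without replicate 3, it was -3.88 ± 0.58 (edgeR adjusted p = 2.84e-05). The neighbouring ligand genes AREG (amphiregulin) and EREG (epiregulin) were called lower in 4 of 10 regions (range 2 to 4, low without DMSO 1) and 5 of 15 regions (range 0 to 5, low without DMSO 3). A called AREG region 1029 bp from the start site stood at 5.71, 15.2 and 8.45 CPM in DMSO and 1.30, 1.05 and 0.387 CPM in the sequential group. At AREG this was a log2 fold change of -3.35 ± 0.66 (SE; edgeR adjusted p = 0.00372) and, without replicate 3, -3.04. The ligand gene HBEGF instead had 9 of 11 regions (range 0 to 9, low without DMSO 3) called higher, at summed CPM of 48.8, 41.4 and 33.3 in DMSO and 177, 198 and 235 in the sequential group, with no overlap and replicate 3 the highest library. NRG1, a ligand of ERBB3 and ERBB4, had 3 of 16 regions (range 2 to 2) called higher, and so did LRIG1, which promotes receptor degradation, in 3 of 16 regions (range 1 to 4, low without DMSO 2). Of the receptors, EGFR was called lower in 7 of 34 regions (range 2 to 7, low without DMSO 2) and higher in 2 of 34 regions (range 0 to 2, low without DMSO 2). The EGFR region 32822 bp upstream (chr7:54985694-54986195) held 32.5, 49.98 and 33.7 CPM in DMSO and 5.91, 8.26 and 2.32 CPM in the sequential group, without overlap. At EGFR this was a log2 fold change of -2.80 ± 0.58 (SE; edgeR adjusted p = 0.00459) and, without replicate 3, -2.46. The single region of ERBB4 was called higher (range 1 to 1), and ERBB2 and ERBB3 had no called region among 8 and 2.

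Receptors linked to bypass signalling moved apart gene by gene. Of their list, 22 of 157 regions (14.01%) were called higher and 11 (7.01%) lower (range 7 to 23 higher and 5 to 11 lower, lowest without DMSO replicate 2), with a median of 0.29 with all libraries and 0.17 without replicate 3. PDGFRB, a PDGF receptor of mesenchymal cells, was called higher in 9 of 11 regions (range 4 to 10, low without DMSO 2), with summed CPM of 70.6, 25.0 and 27.8 in DMSO and 238, 195 and 394 in the sequential group. Its called region with the highest mean count, 4625 bp upstream, lost its call in 1 fit that left out 1 library. That region held 11.6, 3.30 and 3.72 CPM in DMSO and 40.6, 39.1 and 52.6 CPM in the sequential group. The PDGFRB promoter region 1000 bp upstream, which stayed called, had 4.81, 1.86 and 2.01 CPM in DMSO and 21.3, 16.8 and 51.6 CPM in the sequential group, replicate 3 being the highest. At PDGFRB this was a log2 fold change of 3.36 ± 0.69 (SE; edgeR adjusted p = 0.00443) and, without replicate 3, 2.70. The gene of the other PDGF receptor, PDGFRA, had 2 of 3 regions (range 1 to 2, low without DMSO 2) called higher and IRS2, an adaptor of insulin and IGF receptors, 5 of 10 regions (range 0 to 5, low without DMSO 2). MET, the receptor of hepatocyte growth factor, was called lower in 5 of 28 regions (range 2 to 5, low without DMSO 1) and higher in none. The MET region at 2554 bp (chr7:116772220-116772721) had 14.1, 32.5 and 17.7 CPM in DMSO and 4.01, 2.09 and 0.193 CPM in the sequential group. At MET this was a log2 fold change of -3.29 ± 0.75 (SE; edgeR adjusted p = 0.00737) and, without replicate 3, -2.81. IGF1R, the receptor of IGF1, had 2 regions called each way among 32 (range 1 to 3, low without DMSO 1 for higher and range 0 to 2, low without DMSO 2 for lower). A higher IGF1R region, at 1100 bp, stood at 0.816, 0.310 and 1.01 CPM in DMSO and 8.32, 8.26 and 19.7 CPM in the sequential group (log2 fold change 4.05 ± 0.68, edgeR adjusted p = 0.00178, and 3.51 without replicate 3). AXL and MERTK, receptors of GAS6, had no called region among 9 and 13.

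At least 1 region was called higher at 16 of 21 YAP and TAZ target genes, against 2887 of 15633 annotated genes. Genes with more regions have more occasions for a call, and these 21 held 372 regions, against 67387 over all 15633. For the list, 93 of 372 regions (25.0%) were called higher and 23 (6.18%) lower (range 32 to 97 higher and 13 to 24 lower, lowest without DMSO replicate 2), and the median was 0.93 with all libraries and 1.14 without replicate 3. Within 1 kb of start sites, 14 of the 53 regions of these genes were called higher and none lower, against 4.65% and 3.18% of all such regions. Besides ANKRD1 and CRIM1, the RNA-binding protein gene RBMS3 had 11 of 26 regions (range 3 to 11, low without DMSO 2) called higher, LATS2, a Hippo kinase that restrains YAP, 9 of 16 regions (range 3 to 10, low without DMSO 3), and FJX1 7 of 13 regions (range 1 to 7, low without DMSO 2). The LATS2 sums were 56.7, 66.0 and 52.9 in DMSO and 146, 220.5 and 223 in the sequential group, without overlap. The RBMS3 sums were 223, 230.4 and 141 in DMSO and 826, 951 and 148 in the sequential group, with replicate 3 inside the DMSO range. AMOTL2, an angiomotin that binds YAP, was called higher in 7 of 17 regions (range 0 to 8, low without DMSO 2) and CCN1, a matrix protein, in 4 of 15 regions (range 0 to 4, low without DMSO 1). At 3 members of the list only lower regions were called: PTPN14, a phosphatase that binds YAP, with 10 of 25 regions (range 5 to 10, low without DMSO 2), the exchange factor gene DOCK5 with 5 of 16 regions (range 3 to 5, low without DMSO 2) and the ectonucleotidase gene NT5E with 5 of 10 regions (range 3 to 8, low without DMSO 2). A PTPN14 region 16594 bp upstream held 12.4, 15.3 and 9.35 CPM in DMSO and 2.00, 1.98 and 0.387 CPM in the sequential group. At PTPN14 this was a log2 fold change of -3.02 ± 0.62 (SE; edgeR adjusted p = 0.00435) and, without replicate 3, -2.63.

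Epithelial junction and identity genes were called lower in a share of regions close to that of all annotated regions, and higher in a smaller one. In this list 14 of 212 regions (6.60%) were called higher and 29 (13.7%) lower (median log2 fold change -0.30 with all libraries and -0.50 without replicate 3, range of counts 3 to 13 higher and 15 to 30 lower, lowest without DMSO replicate 2). Promoters had the opposite order, with 5 of 71 regions within 1 kb of a start site called higher and 1 lower. All such regions have that order too, with 4.65% called higher and 3.18% lower, so these few calls set the list apart little. GRHL2, a factor that maintains epithelial state, was called lower in 10 of 27 regions (range 7 to 10) and higher in none. Its exonic region 39722 bp upstream of the assigned start site had 41.0, 66.9 and 50.4 CPM in DMSO and 6.81, 3.37 and 1.55 CPM in the sequential group. For GRHL2, osimertinib DTP cells held 4.78, 2.37 and 4.03 CPM. All treated libraries lay below all DMSO libraries there. The GRHL2 region had a log2 fold change of -3.73 ± 0.63 (SE) with all libraries (edgeR adjusted p = 0.0018). For GRHL2 without replicate 3, it was -3.37 ± 0.55 (edgeR adjusted p = 7.52e-05). CDH1, the gene of E-cadherin, had 9 of 24 regions (range 2 to 10, low without DMSO 2) called lower and 1 of 24 regions (range 0 to 1, low without DMSO 1) higher, at summed CPM of 193, 406 and 335 in DMSO and 77.4, 160.3 and 126 in the sequential group. The CDH1 groups did not overlap. The keratin gene KRT19 was called lower in 3 of 14 regions (range 0 to 3, low without DMSO 2) but KRT18 higher in 5 of 13 regions (range 1 to 6, low without DMSO 2), and KRT7 and KRT8 had no called region among 14 and 10. ELF3 and GRHL1, both epithelial factors, had 3 of 28 regions (range 0 to 3, low without DMSO 1) and 3 of 9 regions (range 1 to 2, low without DMSO 1) called higher. The tight junction gene CLDN1 had 2 of 5 regions (range 1 to 1, low without DMSO 1) higher and its relative CLDN7 3 of 7 regions (range 3 to 3) lower.

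Mesenchymal and matrix genes had calls in both directions, but at promoters gains alone. Of the list, 26 of 205 regions (12.7%) were called higher and 21 (10.2%) lower (median log2 fold change 0.45 with all libraries and 0.38 without replicate 3, range of counts 9 to 35 higher and 3 to 16 lower, lowest without DMSO replicate 2), and without TMM the order turned, to 23 higher and 24 lower. Within 1 kb of a start site 8 of 49 regions were called higher and none lower, against 4.65% and 3.18% of all such regions. How far these few promoter calls rest on single libraries was not computed. COL12A1, a fibril-associated collagen, had 5 of 8 regions (range 2 to 6, low without DMSO 2) called higher with summed CPM of 33.7, 9.50 and 6.64 in DMSO and 175, 104 and 114 in the sequential group, all above DMSO. TNC, the matrix protein tenascin-C, was called higher in 5 of 14 regions (range 5 to 5). Its promoter region at 310 bp had 1.63, 0.516 and 0.704 CPM in DMSO and 20.7, 29.3 and 3.87 CPM in the sequential group. At TNC this was a log2 fold change of 4.22 ± 0.76 (SE; edgeR adjusted p = 0.00238) and, without replicate 3, 4.68. A COL5A1 intronic region at 9049 bp stood at 4.17, 2.38 and 1.81 CPM in DMSO and 16.1, 17.6 and 23.6 CPM in the sequential group. At COL5A1 this was a log2 fold change of 2.77 ± 0.59 (SE; edgeR adjusted p = 0.00512) and, without replicate 3, 2.58. TGFBI, a matrix protein induced by TGF-beta, was called lower in 7 of 36 regions (range 2 to 6, low without DMSO 2) and COL6A3 in 3 of 5 regions (range 0 to 3, low without DMSO 2). ZEB1, FN1 and THBS1 had no called region, and VIM, the gene of vimentin, had 1 of 3 regions (range 0 to 2, low without DMSO 2) called higher.

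The TGF-beta and BMP list had 24 higher and 18 lower of 201 regions (11.9% and 8.96%; median log2 fold change 0.51 with all libraries and 0.34 without replicate 3, range of counts 3 to 30 higher and 1 to 17 lower, lowest without DMSO replicate 2), and its order too turned without TMM (14 and 19) and without DMSO replicate 3 (3 and 5). TGFB2, a TGF-beta ligand gene, was called higher in 6 of 25 regions (range 1 to 6, low without DMSO 2) and the BMP antagonist gene NOG in 3 of 8 regions (range 0 to 4, low without DMSO 2). The receptor genes TGFBR2 and TGFBR3 had 2 of 23 regions (range 0 to 2, low without DMSO 1) and 2 of 4 regions (range 0 to 3, low without DMSO 2) called higher, and TGFBR1 none. The latent TGF-beta binding proteins LTBP1 and LTBP2 were called lower in 3 of 10 regions (range 0 to 3, low without DMSO 1) and 7 of 20 regions (range 1 to 7, low without DMSO 2). SMAD3, the effector of TGF-beta receptors, had 3 of 38 regions (range 0 to 3, low without DMSO 2) called higher and 4 of 38 regions (range 0 to 3, low without DMSO 2) lower, and the inhibitory SMAD6 3 of 14 regions (range 1 to 4, low without DMSO 2) higher and 3 of 14 regions (range 0 to 3, low without DMSO 2) lower. A SMAD6 region 86730 bp from the start site stood at 0.998, 0.103 and 0.503 CPM in DMSO and 10.8, 12.1 and 6.38 CPM in the sequential group. At SMAD6 this was a log2 fold change of 4.14 ± 0.71 (SE; edgeR adjusted p = 0.00188) and, without replicate 3, 4.35.

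Among Wnt genes, 10 of 144 regions (6.94%) were called higher and 21 (14.6%) lower (median log2 fold change 0.37 with all libraries and 0.09 without replicate 3, range of counts 2 to 14 higher and 5 to 18 lower, lowest without DMSO replicate 2). The median of the Wnt list thus lay above 0 although lower calls outnumbered higher ones. The epithelial Wnt ligand genes WNT7A and WNT7B were called lower in 6 of 9 regions (range 2 to 6, low without DMSO 2) and 6 of 15 regions (range 0 to 5, low without DMSO 2). Their summed CPM were 162, 236 and 171 in DMSO and 46.2, 81.2 and 85.8 in the sequential group for WNT7A. For WNT7B they were 164, 268 and 246 in DMSO and 43.8, 70.3 and 124 in the sequential group. Neither gene overlapped between the groups. DKK1, a secreted Wnt inhibitor, had 3 of 7 regions (range 1 to 3, low without DMSO 2) called lower. The DKK1 region at 19835 bp held 11.9, 28.2 and 15.5 CPM in DMSO and 2.00, 3.14 and 0.966 CPM in the sequential group. At DKK1 this was a log2 fold change of -3.15 ± 0.69 (SE; edgeR adjusted p = 0.00614) and, without replicate 3, -2.85. LGR5, a receptor of R-spondins and a stem cell marker, was called higher in 4 of 5 regions (range 1 to 3, low without DMSO 3) with 3.17, 4.23 and 2.51 in DMSO and 13.8, 54.6 and 7.73 in the sequential group, with 37.6, 68.2 and 80.5 in osimertinib DTP cells; sequential replicate 2 stood far above replicates 1 and 3. RNF43, which removes Wnt receptors, had 2 of 12 regions (range 0 to 2, low without DMSO 1) called higher.

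Lung lineage genes held few regions. Of 46, 1 was called higher and 6 lower (2.17% and 13.04%; median log2 fold change -0.14 with all libraries and -0.03 without replicate 3, range of counts 1 to 2 higher and 1 to 6 lower, the lower count lowest without DMSO replicate 2), and 8 of the 21 genes, among them FOXA1 and SOX2, had no annotated region. Both regions of CEBPA, a factor of alveolar cells, were called lower (range 1 to 2), with summed CPM of 16.2, 21.4 and 21.1 in DMSO and 2.10, 4.19 and 4.25 in the sequential group. The only higher call, at HOPX, a marker of alveolar type 1 cells, lay 16716 bp upstream and had 0.363, 0.723 and 0.603 CPM in DMSO and 8.22, 14.9 and 2.13 CPM in the sequential group. At HOPX this was a log2 fold change of 3.89 ± 0.77 (SE; edgeR adjusted p = 0.00372) and, without replicate 3, 4.33. NKX2-1, the lineage factor of lung adenocarcinoma, had 3 regions and no call, as did SOX9.

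Cell cycle genes had more losses than gains, nearly all at CDK6. In the list 5 of 101 regions (4.95%) were called higher and 15 (14.9%) lower (median log2 fold change -0.44 with all libraries and -0.70 without replicate 3, range of counts 1 to 6 higher and 8 to 15 lower), and 14 of the 15 lower regions belonged to CDK6 (range 8 to 13, lowest without DMSO replicate 3), a kinase that drives entry into S phase. The CDK6 sums were 305, 615 and 470.2 in DMSO and 260.4, 374 and 207 in the sequential group, where DMSO replicate 1 lay below sequential replicate 2. The other lower region belonged to TOP2A, the topoisomerase of dividing cells. The S phase cyclin gene CCNE1 and the replication helicase gene MCM2 had 2 of 6 regions (range 1 to 3, low without DMSO 1) and 2 of 3 regions (range 0 to 2, low without DMSO 2) called higher, and the S phase factor gene E2F3 had 1 of 5 regions (range 0 to 1, low without DMSO 1).

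BCL2 family genes had calls in both directions. Here 10 of 71 regions (14.1%) were called higher and 7 (9.86%) lower (median log2 fold change 0.60 with all libraries and 0.29 without replicate 3, range of counts 5 to 11 higher and 2 to 7 lower, lowest without DMSO replicate 2). All 3 regions of BOK, a pro-apoptotic effector, were called higher in every repeat, with summed CPM of 4.08, 3.61 and 4.53 in DMSO and 43.9, 42.6 and 47.2 in the sequential group. The sequential libraries were nearly equal there. In a BOK region classed as intronic but 4213 bp upstream of the assigned start site (chr2:241546710-241547211) the values were 1.45, 0.929 and 2.21 CPM in DMSO and 17.9, 19.8 and 19.9 CPM in the sequential group. For BOK, osimertinib DTP cells held 7.74, 24.8 and 4.33 CPM. The BOK region had a log2 fold change of 3.64 ± 0.70 (SE) with all libraries (edgeR adjusted p = 0.00317). For BOK without replicate 3, it was 3.604 ± 0.60 (edgeR adjusted p = 0.000108). HRK, which encodes a BH3-only protein, had 4 of 4 regions (range 1 to 4, low without DMSO 2) called higher and BCL2, the anti-apoptotic founder of the family, 2 of 2 regions (range 1 to 2, low without DMSO 2), with 6.89, 4.85 and 1.51 in DMSO and 45.0, 38.3 and 40.4 in the sequential group for BCL2. PMAIP1, the gene of the BH3-only protein NOXA, had 5 of 19 regions (range 2 to 5, low without DMSO 2) called lower. Its region at 51789 bp stood at 11.4, 20.9 and 12.1 CPM in DMSO and 2.81, 1.51 and 0.193 CPM in the sequential group. At PMAIP1 this was a log2 fold change of -3.22 ± 0.71 (SE; edgeR adjusted p = 0.00621) and, without replicate 3, -2.77. BCL2L11, the gene of BIM, had 6 regions and no call.

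The interferon list had 5 higher and 7 lower of 80 regions (6.25% and 8.75%; median log2 fold change 0.37 with all libraries and 0.17 without replicate 3, range of counts 2 to 4 higher and 6 to 7 lower, the higher count lowest without DMSO replicate 3), an order that turned in a voom fit with quality weights (22 and 14), and its median lay above 0 although lower calls were more numerous. IFI44, an interferon-induced gene, was called lower in 4 of 6 regions (range 3 to 4). Its region 28847 bp from the start site (chr1:78691582-78692083) had 9.70, 27.3 and 18.9 CPM in DMSO and 0.802, 0.465 and 0.193 CPM in the sequential group. For IFI44, osimertinib DTP cells held 1.15, 0.139 and 0.403 CPM. Every treated library lay far below every DMSO library. The IFI44 region had a log2 fold change of -5.13 ± 0.78 (SE) with all libraries (edgeR adjusted p = 0.00133). For IFI44 without replicate 3, it was -4.84 ± 0.71 (edgeR adjusted p = 2.64e-05). CD274, which encodes the checkpoint ligand PD-L1, was called lower at a region 2820 bp upstream that held 11.97, 33.7 and 20.1 CPM in DMSO and 1.60, 1.75 and 0.966 CPM in the sequential group. At CD274 this was a log2 fold change of -3.89 ± 0.62 (SE; edgeR adjusted p = 0.00147) and, without replicate 3, -3.71.

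NF-kappaB genes had 12 higher and 4 lower of 119 regions (10.1% and 3.36%; median log2 fold change 0.66 with all libraries and 0.06 without replicate 3, range of counts 3 to 14 higher and 2 to 4 lower, lowest without DMSO replicate 2). The chemokine gene CCL2 was called higher in 6 of 7 regions (range 0 to 7, low without DMSO 2) and NFKBIZ, an atypical inhibitor protein of the family, in 3 of 8 regions (range 3 to 3). The called NFKBIZ region 6842 bp upstream had 1.72, 0.826 and 0.805 CPM in DMSO and 23.4, 21.9 and 3.29 CPM in the sequential group. At NFKBIZ this was a log2 fold change of 3.84 ± 0.72 (SE; edgeR adjusted p = 0.0029) and, without replicate 3, 4.31. The chemokine gene CCL20 was called lower 3981 bp from the start site, with 11.9, 12.8 and 9.65 CPM in DMSO and 1.30, 1.28 and 1.16 CPM in the sequential group (log2 fold change -3.18 ± 0.63, edgeR adjusted p = 0.00351, and -3.14 without replicate 3). TNFAIP3, the gene of the feedback inhibitor A20, was called lower at an intronic region that held 7.44, 16.01 and 10.4 CPM in DMSO and 1.503, 1.28 and 0 CPM in the sequential group (log2 fold change -3.49 ± 0.78, edgeR adjusted p = 0.00685, and -3.01 without replicate 3). The sequential libraries did not overlap DMSO at any of these regions. NFKBIA, another feedback inhibitor gene, had 16 regions and no call.

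Cholesterol and fatty acid synthesis genes were called lower in 17 of 107 regions (15.9%) and higher in 5 (4.67%; range 1 to 6 higher and 3 to 15 lower, lowest without DMSO replicate 2), with a median of -0.75 with all libraries and -0.91 without replicate 3. SREBF1, which encodes the master regulator of fatty acid synthesis, was called lower in 5 of 11 regions (range 1 to 5, low without DMSO 2). Its promoter region 246 bp upstream (chr17:17823864-17824365) had 22.3, 27.3 and 20.8 CPM in DMSO and 3.31, 2.79 and 4.83 CPM in the sequential group. For SREBF1, osimertinib DTP cells held 7.55, 6.68 and 2.72 CPM. The sequential values of SREBF1 were close to each other and below all of DMSO. The SREBF1 region had a log2 fold change of -2.69 ± 0.58 (SE) with all libraries (edgeR adjusted p = 0.00549). For SREBF1 without replicate 3, it was -2.94 ± 0.55 (edgeR adjusted p = 0.00029). SCD, a fatty acid desaturase, was called lower at its promoter 943 bp upstream, with 18.5, 29.1 and 22.4 CPM in DMSO and 3.91, 2.44 and 3.09 CPM in the sequential group (log2 fold change -2.88 ± 0.55, edgeR adjusted p = 0.00286, and -2.87 without replicate 3). HMGCS1, an early enzyme of cholesterol synthesis, was called higher at its promoter, with 1.36, 1.14 and 0.805 CPM in DMSO and 34.1, 34.8 and 10.4 CPM in the sequential group (log2 fold change 4.57 ± 0.66, edgeR adjusted p = 0.00121, and 4.94 without replicate 3). A region assigned to HMGCS1 and classed as intronic, 23089 bp upstream, was called lower, with 5.89, 16.4 and 10.3 CPM in DMSO and 0.401, 0.465 and 0 CPM in the sequential group (log2 fold change -5.02 ± 0.80, edgeR adjusted p = 0.00147, and -4.62 without replicate 3).

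The NRF2 and aldehyde dehydrogenase list was balanced, 12 higher and 11 lower of 120 regions (10.0% and 9.17%; median log2 fold change 0.59 with all libraries and 0.39 without replicate 3, range of counts 1 to 13 higher and 4 to 11 lower, lowest without DMSO replicate 2), and the order turned without TMM (8 and 13), at an adjusted p under 0.01 (3 and 5), without DMSO replicate 2 (1 and 4), without DMSO replicate 3 (2 and 5) and without sequential replicate 1 (5 and 7). All 7 regions of AKR1B10, an aldo-keto reductase, were called lower (range 4 to 7). A distal AKR1B10 region 14448 bp upstream (chr7:134512618-134513119) stood at 18.05, 43.1 and 32.6 CPM in DMSO and 0.802, 1.51 and 0.773 CPM in the sequential group. For AKR1B10, osimertinib DTP cells held 2.29, 3.20 and 4.03 CPM. The sequential libraries were the lowest of the 9 and did not overlap either other group. Against DMSO, the log2 fold change was -4.89 ± 0.66 (SE) with all libraries (edgeR adjusted p = 0.00114). For AKR1B10 without replicate 3, it was -4.76 ± 0.63 (edgeR adjusted p = 7.72e-06). TXNRD1, a thioredoxin reductase, was called higher in 7 of 30 regions (range 0 to 8, low without DMSO 2) and NFE2L2, the gene of NRF2 itself, in 2 of 10 regions (range 0 to 2, low without DMSO 2), while HMOX1, heme oxygenase 1, was called lower in 3 of 17 regions (range 0 to 4, low without DMSO 2).

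Axon guidance genes were called lower in 46 of 188 regions (24.5%) and higher in 16 (8.51%; median log2 fold change -0.37 with all libraries and -0.33 without replicate 3, range of counts 5 to 14 higher and 27 to 43 lower, lowest without DMSO replicate 2). Of its 31 promoter regions, 6 were called lower and none higher, against 3.18% and 4.65% of all such regions. NRP1, a co-receptor of semaphorins and VEGF, carried the most losses, 17 of 47 regions (range 9 to 17, low without DMSO 2), and none of its regions was called higher. Its relative NRP2 had 4 of 14 regions (range 1 to 4, low without sequential 1) called lower. PLXNA4, a semaphorin receptor, was called lower in 5 of 7 regions (range 4 to 5). At its promoter (chr7:132145050-132145551) the mark stood at 19.3, 32.1 and 21.4 CPM in DMSO and 2.60, 2.21 and 1.93 CPM in the sequential group. For PLXNA4, osimertinib DTP cells held 5.26, 3.34 and 3.63 CPM. The groups did not overlap, and the 3 sequential values were almost equal. The PLXNA4 region had a log2 fold change of -3.42 ± 0.57 (SE) with all libraries (edgeR adjusted p = 0.00166). For PLXNA4 without replicate 3, it was -3.33 ± 0.54 (edgeR adjusted p = 6.73e-05). The related PLXNA2 had 3 of 14 regions (range 1 to 3, low without DMSO 2) called higher and 1 of 14 regions (range 0 to 1, low without DMSO 1) lower, with 0.726, 1.03 and 0.805 CPM in DMSO and 10.1, 22.3 and 6.57 CPM in the sequential group at an intronic region (log2 fold change 3.91 ± 0.66, edgeR adjusted p = 0.00176, and 4.22 without replicate 3). Secreted semaphorin genes carried calls both ways, SEMA3C with 4 of 22 regions (range 0 to 3, low without DMSO 2) higher and 5 of 22 regions (range 3 to 5, low without DMSO 2) lower, and SEMA3E with 4 of 8 regions (range 1 to 3, low without DMSO 1) higher and 1 of 8 regions (range 0 to 0, low without DMSO 1) lower.

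FOXO, growth arrest and lysosome genes had 21 higher and 10 lower of 170 regions (12.4% and 5.88%; median log2 fold change 0.61 with all libraries and 0.36 without replicate 3, range of counts 4 to 29 higher and 2 to 9 lower, the higher count lowest without DMSO replicate 3 and the lower without DMSO replicate 2). CITED2, a FOXO target and cofactor of CBP and p300, was called higher in 6 of 13 regions (range 3 to 8, low without DMSO 1) with summed CPM of 82.7, 127 and 93.5 in DMSO and 306, 315 and 189.6 in the sequential group. Its groups did not overlap. BCL6, a transcriptional repressor under FOXO control, had 4 of 11 regions (range 0 to 5, low without DMSO 3) called higher and TXNIP, an inhibitor of glucose uptake, 4 of 13 regions (range 0 to 3, low without DMSO 2). GABARAPL1, an autophagy protein, had 3 of 3 regions (range 0 to 3, low without DMSO 3) called higher. KLF6 held most of the losses, 7 of 23 regions (range 1 to 6, low without DMSO 2). The factor genes FOXO1 and FOXO3 themselves had no called region among 3 and 12.

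Genes of the AP-1 factors had few calls, 6 higher and 3 lower of 90 regions (6.67% and 3.33%; median log2 fold change 0.54 with all libraries and -0.06 without replicate 3, range of counts 2 to 9 higher and 0 to 3 lower, lowest without DMSO replicate 2). FOS was called higher in 2 of 7 regions (range 2 to 2). The called region 11187 bp upstream had 0.453, 0.723 and 0.603 CPM in DMSO and 10.6, 14.5 and 4.25 CPM in the sequential group. At FOS this was a log2 fold change of 4.03 ± 0.65 (SE; edgeR adjusted p = 0.00147) and, without replicate 3, 4.38. ATF3 and FOSL2 had 2 of 8 regions (range 0 to 4, low without DMSO 1) and 2 of 24 regions (range 0 to 2, low without DMSO 2) called higher, and BATF and FOSL1 2 of 7 regions (range 0 to 2, low without DMSO 2) and 1 of 10 regions (range 0 to 2, low without DMSO 1) called lower. JUN had 9 regions and no call. Genes of BET proteins and P-TEFb, the machinery that AZD5153 acts on, had 4 higher and 2 lower of 46 regions (8.70% and 4.35%; median log2 fold change 0.70 with all libraries and 0.29 without replicate 3, range of counts 0 to 4 higher and 1 to 2 lower, lowest without DMSO replicate 2). The order turned at an adjusted p under 0.01 (0 higher and 2 lower), without DMSO replicate 2 (0 and 1), without DMSO replicate 3 (0 and 2) and without sequential replicate 2 (1 and 2). The BET gene BRD3 had 2 of 5 regions (range 0 to 3, low without DMSO 2) called higher. AFF4, a scaffold of the super elongation complex, was called lower at a region 15644 bp upstream with 4.26, 9.29 and 6.03 CPM in DMSO and 0.200, 0.233 and 0.387 CPM in the sequential group (log2 fold change -4.58 ± 0.75, edgeR adjusted p = 0.00153, and -4.84 without replicate 3). MYC had 4 regions and no call.

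Defining markers of the line and of other cell types were also read for calls, which compare the groups and cannot check the label of the line. All 8 markers of an epithelial lung adenocarcinoma line had annotated regions, 90 in total, of which 6 were called higher and 14 lower (6.67% and 15.6%; median log2 fold change -0.16 with all libraries and -0.62 without replicate 3, range of counts 1 to 8 higher and 4 to 13 lower, lowest without DMSO replicate 2). Without sequential replicate 1 this order turned, to 5 higher and 4 lower. Of 12 markers of blood, endothelial, muscle, liver and neural cells, 7 had no annotated region (among them PTPRC, CD3E, MYOD1, DES, ALB and APOA1). The other 5 had 21 regions, none of them called higher and 5 lower (median log2 fold change -0.58 with all libraries and -0.65 without replicate 3, range of counts 0 to 0 higher and 1 to 5 lower, lowest without DMSO replicate 2), 3 at PECAM1 and 1 each at CDH5 and GFAP. No marker of another cell type had a gained region.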

How the data were processed

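Per the labels, formaldehyde-fixed chromatin was precipitated with an antibody to H3K27ac and sequenced. The submitters' processing notes name BWA 0.7.17, MACS2 2.2.6, featureCounts 2.0.0, ChIPseeker 1.29.1 and hg38, without their order. The authors deposited counts of reads per region, not normalised, for 169637 regions, and a filtered copy that adds the annotation. The authors also deposited peak lists per library with a fold enrichment ratio and -log10 p and q values, of which only the positions were used here. The peak threshold and the handling of duplicate reads are not given in the sources used here. Libraries were grouped by their labels, and the input entered no test.

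Regions were kept by filterByExpr with a minimum count of 10, scaled by TMM, and tested with the robust quasi-likelihood test of edgeR 4.0.16 in R 4.3.3, once over all 9 H3K27ac libraries and once without sequential replicate 3, with Benjamini-Hochberg adjustment over all regions tested and a threshold of 0.05. Fold changes are on the log2 scale with standard errors. Total counts of 6263443 to 10463351 per library set the precision. The scripts were tested on simulated data. Alternatives were DESeq2 1.42.0, limma 3.58.1 (voom with quality weights), library sizes without TMM, a loess offset, no filter, annotated regions only, the libraries of the 2 groups only, a stricter threshold, a replicate block and leaving out each library. Stretches were grouped, and printed promoters picked, after their values were seen.

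Genes were named by rule: the 15 genes with most called regions in 1 direction and none in the other, the 10 promoter regions with the largest changes in each direction, and up to 6 genes of each list with most called regions. Other list members are named where they had no call or a contrasting one, and these were chosen after their values were seen. The compared groups, rules and gene lists were chosen with earlier results of these data known. Gene names are those of the deposited annotation, with promoter and microRNA sequences from RefSeq (GRCh38.p14).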

Additional observations from a re-analysis of the deposited data

How the results depend on the processing

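No fold change of the 182 named regions reversed under any of up to 18 alternatives, which gave no value for 2 pairs of region and alternative. Of the other pairs, 2689 kept their side of the threshold and 585 lost the call, and 73 regions were called under every alternative. With all libraries, the numbers of regions called higher and lower were 7991 and 8534 over annotated regions only, 7762 and 8491 with the libraries of the 2 groups only, 37608 and 39284 with voom and quality weights, and 4834 and 4964 at an adjusted p under 0.01. DESeq2 gave 20355 and 18868. Leaving out 1 library gave 3943 to 29786 higher and 4526 to 27986 lower. The lowest values came without DMSO replicate 2 and the highest without sequential replicate 3. Without that replicate from the start, the counts were 13298 and 12366 over annotated regions only and 19235 and 14065 at an adjusted p under 0.01. Leaving out a second library then gave 19807 to 36893 higher and 13794 to 32049 lower, lowest without DMSO replicate 3 for gains and without sequential replicate 2 for losses. DESeq2 gave 30932 and 28134. The cause of these shifts was not tested, except that the stricter threshold and the annotated table allow fewer calls by construction.

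The labels number the replicates alike in each group but do not say what the numbers mark. Deviations from the group means correlated at -0.01, 0.55 and 0.35 for numbers 1, 2 and 3. Sequential replicates 2 and 3 correlated best with the DMSO library of their own number, and replicate 1 with DMSO replicate 2, at 0.27. Whether the numbers pair the libraries is thus not settled. With a replicate block, 12445 regions were called higher and 15202 lower with all libraries, and 36161 and 35065 without sequential replicate 3.

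Counts within gene lists were recomputed under 17 alternatives chosen after seeing the data. The more frequent direction held in all 17 for the ERK output, ERBB, bypass receptor, YAP and TAZ, AP-1, epithelial, Wnt, cell cycle, BCL2 family, NF-kappaB, lipid synthesis, axon guidance and FOXO lists. It turned in at least 1 for the BET, mesenchymal, TGF-beta, interferon and NRF2 lists and the epithelial line markers, and the lung lineage list was tied once. Depth limits regions with few reads, and 3 libraries per group limit all calls.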
